A study of Bos taurus with 12 samples.

Results

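Small RNA of ejaculated sperm was compared between 10 and 16 months of age in the same 4 Holstein Friesian bulls, over the sequences that were counted well enough to follow. A sequence was taken as well counted when its mean was 50 or more raw counts over the 8 libraries of both ages, a mean that does not use the contrast between the ages. Of the 5481 sequences in the counted reference, 1667 were well counted. They comprised 269 of 811 miRNA hairpins, 11 of 784 mature miRNA entries, 46 of 61 tRNAs and 1341 of 3825 Ensembl transcripts, which carry identifiers but no gene names in the count table. All entries with a let-7 name were classed as hairpins. Among them are bta-let-7a-3p and bta-let-7a-5p, which are named as mature strands and had no counts. Among the hairpins, 109 were conserved ones that the paper does not name. Conserved here means a miRBase number under 1000 or a let-7 name, since such numbers were mostly given first to miRNAs of human, mouse or rat. A further 6 conserved hairpins belong to miRNAs that the paper names, matched by name without regard to the copy number, and the remaining well counted hairpins carry a number of 1000 or more. At the edge of the rule lay a transcript with a mean of 49.875 counts just outside it and 2 with a mean of 50 counts just inside it.

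Each age was represented by 4 libraries, 1 per bull, and the series holds 12 libraries with those of 12 months. No treatment is listed, and the paper calls 10 months pre-pubertal and 16 months post-pubertal. Each library came from the pooled content of several frozen straws of 1 bull's semen. Because the same animals were sampled at a younger and an older age, age cannot be told apart from the date of collection. The study's methods describe a wash in a lysis buffer for somatic cells before RNA extraction, a step that the sample labels do not list.

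Sperm carry little cytoplasm and a small load of RNA that is largely fragmented. A miRNA is cut from a hairpin precursor into a short mature strand, and the mature strand guides repression of messenger RNAs that match its seed. The 5′ parts of tRNAs, above all those of glycine and glutamate, are known as abundant small RNAs of mammalian sperm, and part of the sperm miRNA and tRNA fragment load is acquired from the epididymis during maturation. The counts were assigned to whole reference entries, so a count on a hairpin is the number of reads on that entry and not per length. Where hairpin and mature counts are set side by side below, they are read counts without correction for the length of the entry.

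Total counts per library ranged from 1914389 to 5119360. Ensembl transcripts took 88.9% to 96% of them, hairpins 2.26% to 7.73%, tRNAs 1.49% to 3.16% and mature miRNA entries 0.0547% to 0.176%. The well counted sequences held 97.7% to 98.8% of all counts. The library of bull 1 at 10 months had the highest hairpin share and a total of 2167864 counts. Hairpins typical of male germ cells were counted at a low level, and none of the 7 listed (bta-mir-34b, bta-mir-34c, bta-mir-449a, bta-mir-449b, bta-mir-449c, bta-mir-202 and bta-mir-184) reached a mean of 50, while bta-mir-449d, which was not on the list, had a mean of 100.9 counts. The counts of the 7 lay between 2 and 63 in the 8 libraries, and their summed level was 43.3 to 50.1 normalized CPM (counts scaled to library size) at 10 months and 34.3 to 54.7 at 16 months.

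Most hairpin counts did not fall on mature miRNA entries, which bears on every hairpin value that follows. Mature entries held 2.10% to 3.10% of the miRNA counts per library. Of the 109 conserved hairpins, 104 were matched to a mature entry of the same name, while the let-7 hairpins were not matched to any. Of the 104, 70 had a summed mature mean under 1 count and 96 under 10 counts. In none of the 104 did the mature count exceed that of the hairpin. Bta-mir-342 had a mean of 16365 counts as a hairpin and 1.25 as a mature miRNA. A hairpin count is thus a count of reads assigned to the hairpin entry. How reads with matches to both a hairpin and a mature entry were shared was not given in the sources used here, so hairpin counts may include reads of the mature strand.

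**Figure D1:**
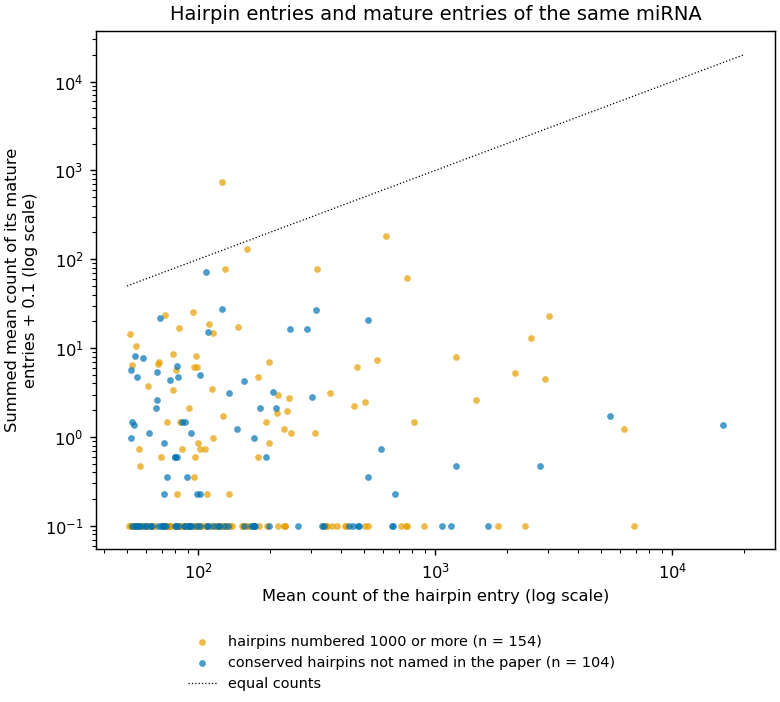
Summed mean count of the mature entries against the mean count of the hairpin entry of the same name, both on log scales with 0.1 added to mature counts, for well counted hairpins. The dotted line marks equal counts; nearly all points lie far below it, and 70 of the 104 conserved hairpins with a mature entry had fewer than 1 mature count on average.

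Well counted sequences differed between the ages mostly by small amounts, and the few larger differences lay more often on the side of 10 months. Sequences were called at a fold change of 1.5 or more and a p, before adjustment, of 0.05 or less, in edgeR's quasi-likelihood test with the bull as a block. This rule called 86 of the 1667 well counted sequences, 66 higher and 20 lower at 10 months, which is 5.16% against a background of 3.70% over all 4625 sequences tested (2.40% higher and 1.30% lower). On the p limit alone there were 178, against 6.18% of all sequences tested. With each library scaled by its total count in place of TMM, the split was 96 higher and 11 lower, and without bull 1 it was 50 higher and 40 lower. Leaving out bull 3 or bull 4 gave 159 and 153 calls. The median log2 fold change of the well counted sequences was -0.01, with 805 above and 862 below 0. With p-values adjusted over every sequence in the edgeR fit (Benjamini-Hochberg), 2 well counted sequences stayed under 0.05, against a background of 0.0649%. One was bta-mir-19b-2, a copy of miR-19b, which the paper names, and the other was the Ensembl transcript ENSBTAT00000059806.1. Neither passed when sequences with fewer than 10 counts in total were left out, with edgeR's filterByExpr, or without the bull as a block.

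**Figure D2:**
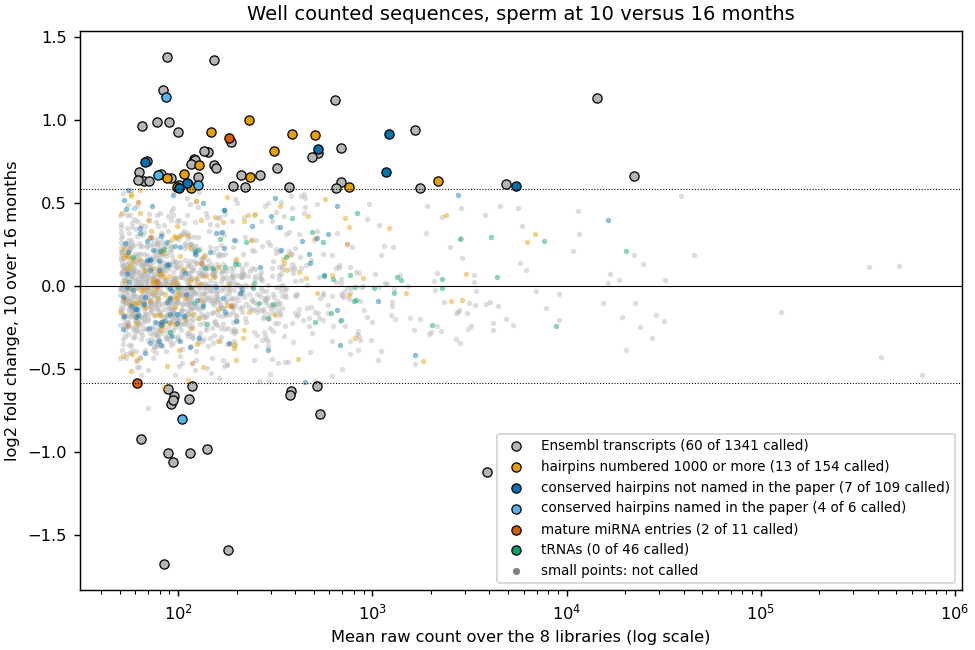
Log2 fold change of 10 over 16 months against the mean raw count (log scale) for the 1667 well counted sequences, coloured by class. Large outlined points are the 86 called sequences, small points were not called, and dotted lines mark a fold change of 1.5; called hairpins not named in the paper lie above 0, and called Ensembl transcripts lie on both sides.

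Of the 109 conserved hairpins that the paper does not name, 7 were called, and all 7 were higher at 10 months. That is 6.42%, beside the background of 3.70%. They were bta-mir-429, bta-mir-144, bta-mir-541, bta-mir-760, bta-mir-211, bta-mir-433 and bta-mir-133b, with log2 fold changes from 0.59 to 0.91. None passed the adjusted threshold; the smallest edgeR Benjamini-Hochberg adjusted p was 0.131, and 18 of the 109 had an unadjusted p of 0.05 or less, 17 of them higher at 10 months and 1 lower. DESeq2 with the bull as a block called 7 as well, and 0 after adjustment, whereas without that block edgeR called 2. With each library scaled by its total count in place of TMM, 13 were called, all higher at 10 months. The 109 as a group were close to level, with a median log2 fold change of 0.08 (58 above 0, 51 below), beside 2299 above and 2326 below 0 among all sequences tested. Higher in 4 of 4 bulls were 17 of them, or 15.6%. This compares with 7.20% of all sequences, 9.48% of the well counted ones and 16.2% of the hairpins numbered 1000 or more. Lower in 4 of 4 bulls were 2, or 1.83%, against 5.36%, 6.48% and 4.55% of the same sets. Leaving out bull 1 gave 8 calls of which 4 were higher and 4 lower, and leaving out bull 3 or bull 4 raised the number to 17 and 13. Without bull 4, 3 of the 109 passed adjustment, bta-mir-429 and bta-mir-144 higher and bta-mir-584-7 lower at 10 months.

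The hairpin bta-mir-429 belongs to the miR-200 family, which is known for keeping epithelial cells epithelial. Its normalized CPM at 10 months were 370, 129, 234 and 115 in bulls 1 to 4. At 16 months they were 140, 54.6, 175 and 97.5. Every bull was higher at 10 months, by the most in bulls 1 and 2, while the range of the 10-month libraries overlapped that of the 16-month ones. The means were 212 ± 118 and 117 ± 52.1 (SD, n = 4 each), and the log2 fold change was 0.83 (SE 0.22, edgeR Benjamini-Hochberg adjusted p = 0.131). The call held in each of the 4 fits that left out 1 bull, with log2 fold changes from 0.62 to 1.01. Without bull 4 it also passed adjustment (edgeR, Benjamini-Hochberg adjusted p = 0.0241), while without the bull as a block it was not called.

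The counts of bta-mir-144, an erythroid miRNA, were 3065, 899, 2034 and 653 in bulls 1 to 4 at 10 months. At 16 months they were 749, 189, 1636 and 512. After normalization bulls 1 and 2 had log2 ratios of 1.53 and 1.62, bull 3 had 0.50, and bull 4 was almost level at 0.02. The ages overlapped, with means of 508 ± 374.8 and 267 ± 168 normalized CPM (SD, n = 4 each). The log2 fold change was 0.91 (SE 0.25, edgeR Benjamini-Hochberg adjusted p = 0.138), it ranged from 0.68 to 1.21 when single bulls were left out, and without bull 4 it passed adjustment (edgeR, Benjamini-Hochberg adjusted p = 0.00688). It too was not called without the bull as a block. These 2 hairpins were the ones, among the 7, that kept the call whichever bull was left out.

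Both called hairpins of the large imprinted cluster that is expressed from the maternal chromosome in eutherian mammals rested on few reads. Bta-mir-541 had 32.2, 26.4, 27.2 and 16.4 normalized CPM at 10 months and 18.5, 9.84, 23.1 and 10.7 at 16 months in bulls 1 to 4. All 4 bulls were higher at 10 months, bull 2 the most, and the ages overlapped. Its log2 fold change was 0.75 (SE 0.22, edgeR Benjamini-Hochberg adjusted p = 0.228), and 0.53 without bull 2, where it was no longer called. For bta-mir-433 the counts were 249, 88, 163 and 67 at 10 months and 67, 42, 169 and 37 at 16 months. Its within-bull log2 ratios were 1.39, 0.43, 0.13 and 0.51, so bull 1 stood above the other bulls, and the ages overlapped. The log2 fold change was 0.62 (SE 0.22, edgeR Benjamini-Hochberg adjusted p = 0.474), and 0.34 without bull 1.

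Bta-mir-133b, best known from striated muscle, was the second most counted of the 109. Its normalized CPM were 3301, 475, 1963 and 2977 in bulls 1 to 4 at 10 months and 1486, 298, 1640 and 2379 at 16 months. Each bull was higher at 10 months, but the bulls differed from each other by far more than the ages did, with bull 2 the lowest at both and overlapping ranges. The log2 fold change was 0.60 (SE 0.23, edgeR Benjamini-Hochberg adjusted p = 0.574). It was not called without bull 1 (0.41) or bull 2 (0.58). Bta-mir-760 had 65.4, 20.4, 42.7 and 29.5 normalized CPM at 10 months and 37.8, 11.9, 31.8 and 22.7 at 16 months, higher at 10 months in every bull, again with bull 2 lowest at both ages and overlapping ranges. Its log2 fold change was 0.59 (SE 0.20, edgeR Benjamini-Hochberg adjusted p = 0.445). It was no longer called without bull 1 (0.51) or bull 2 (0.54).

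Bta-mir-211, known from pigment cells where it lies in an intron of a channel gene, was higher at 10 months in 3 of 4 bulls. Its normalized CPM were 684.8, 376.4, 491.3 and 227.4 at 10 months and 245.4, 164.2, 462.6 and 230.5 at 16 months. Bulls 1 and 2 were lower at 16 months and bulls 3 and 4 were nearly level, so the ages overlapped. The log2 fold change was 0.68 (SE 0.24, edgeR Benjamini-Hochberg adjusted p = 0.474), and it was not called without bull 1 (0.41) or bull 2 (0.51). In all 7 hairpins the widest within-bull difference was that of bull 1 (5 hairpins) or bull 2 (2 hairpins). Set beside the 12-month libraries, in a fit of all 12, the 12-month mean of 4 of the 7 was below the 16-month mean and that of 3 lay between the other two ages; none was above the 10-month mean.

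**Figure D3:**
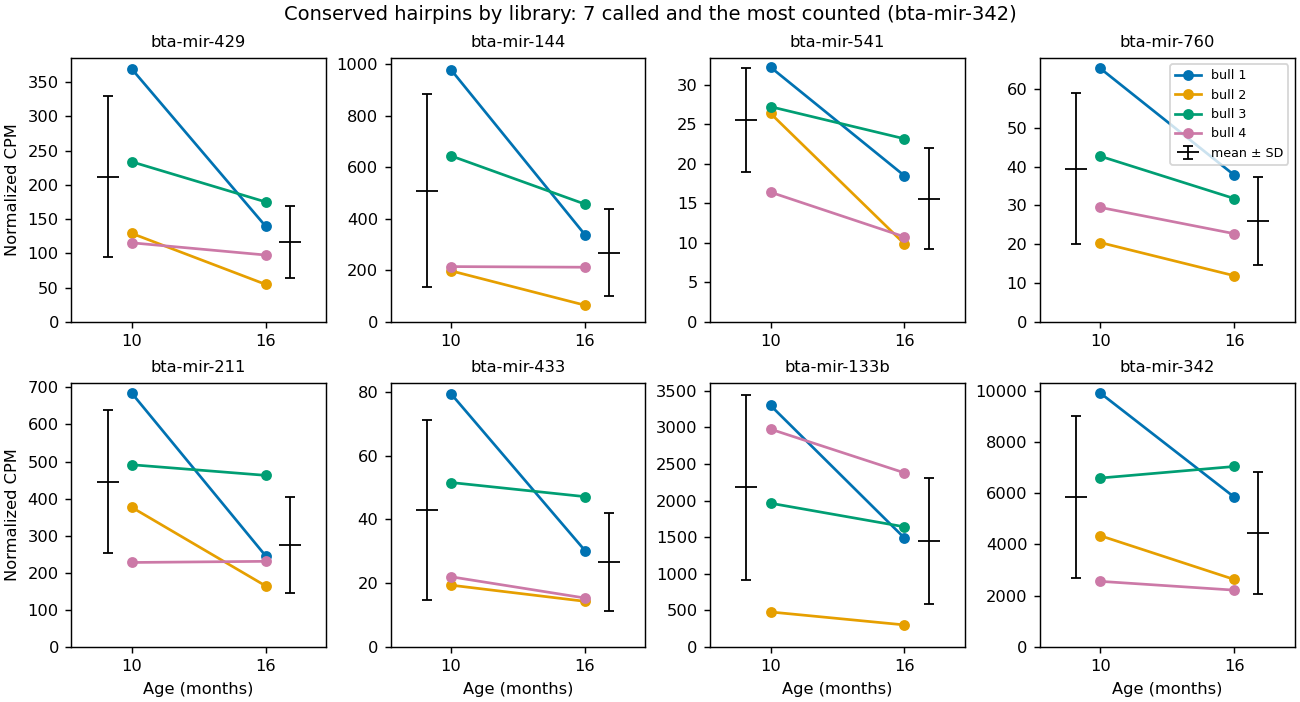
Normalized CPM at 10 and 16 months of the 7 called conserved hairpins and of bta-mir-342, the most counted one, with 1 line per bull and the mean ± SD of 4 bulls beside each age. Lines fall from 10 to 16 months in 6 of the 7 called hairpins for every bull; in bta-mir-211 bull 4 and in bta-mir-342 bull 3 were higher at 16 months.

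The most counted conserved hairpins were not called, apart from bta-mir-133b, bta-mir-144 and bta-mir-211. Bta-mir-342, hosted by the EVL gene in mammals, had a mean of 16365 counts. Its normalized CPM were 9919, 4341, 6598 and 2557 at 10 months and 5849, 2630, 7050 and 2213 at 16 months, higher at the younger age in 3 of 4 bulls and overlapping. The log2 fold change was 0.40 (SE 0.25, edgeR Benjamini-Hochberg adjusted p = 0.960). Bta-mir-323, of the imprinted cluster, had 0.55 (SE 0.23) and was higher at 10 months in all 4 bulls; it was called without bull 3 or bull 4, at 0.69 in both, and was at 0.31 without bull 1. Bta-mir-145, a smooth muscle and fibroblast miRNA, had -0.42 (SE 0.30), with a bull 2 ratio of -2.03 and a bull 1 ratio of 0.79, and was called lower without bull 1, at -0.84. The other hairpins among the 10 most counted were bta-mir-188 at -0.09, bta-mir-137 at -0.36, bta-mir-769 at 0.48 and bta-mir-194-2 at -0.14 on the log2 scale. Past the p limit but under the fold limit were also bta-mir-584-5 at 0.58, bta-mir-129-2 at 0.53 and bta-mir-26c at 0.50, each higher at 10 months in 4 of 4 bulls. Without bull 3, bta-mir-129-2 (0.69), bta-mir-26c (0.60) and bta-mir-769 (0.59) were called, as were bta-mir-129-2 (0.61) and bta-mir-769 (0.63) without bull 4.

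Bulls differed in how far their conserved hairpins were displaced. The median log2 ratio of 10 over 16 months over the 109 hairpins was 0.38 in bull 1, 0.12 in bull 2, -0.12 in bull 3 and 0.09 in bull 4. The number of hairpins higher at 10 months was 79, 66, 41 and 63 of the 109 in bulls 1 to 4. The displacement of bull 1 was not particular to the conserved hairpins. In the hairpins numbered 1000 or more the medians were 0.45, 0.03, -0.09 and 0.04 in bulls 1 to 4. In the Ensembl transcripts the medians were 0.07, 0.02, -0.01 and -0.09. Bull 1 also had the largest change in hairpin share, from 7.73% of counts at 10 months to 4.38% at 16 months. In bull 3 the shares were 4.71% and 4.45%, in bull 2 they were 2.54% and 2.33%, and in bull 4 they were 2.46% and 2.26%. The part of these shares in the hairpin calls was not tested.

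**Figure D4:**
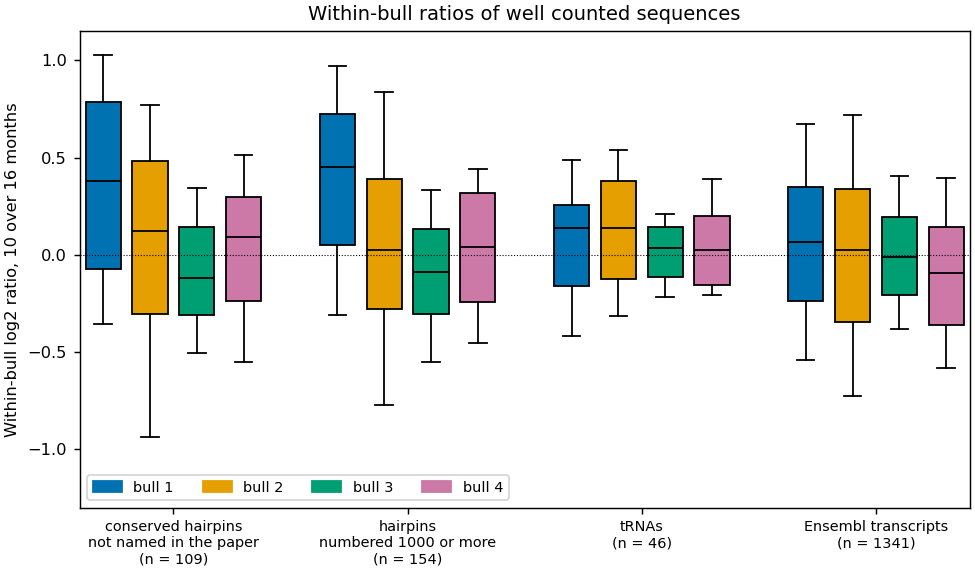
Log2 ratio of 10 over 16 months within each bull for well counted sequences of 4 classes. Boxes span the quartiles of the sequences with the median as a line and whiskers reach the 10th and 90th percentiles; conserved hairpins of bull 1 are centred at 0.38 and those of bull 3 at -0.12.

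Among the hairpins numbered 1000 or more, first described in cattle or in later surveys, the calls also lay on the side of 10 months. As a group these hairpins were close to level, with a median log2 fold change of 0.05 (90 above 0, 64 below). Of these hairpins 13 were called, all higher at 10 months (8.44%, background 3.70%). Of the 13, 9 were higher in 4 of 4 bulls, 3 in 3 of 4 and bta-mir-2284f in 2 of 4, and 4 kept the call whichever bull was left out. None passed adjustment in edgeR, with 29 at an unadjusted p of 0.05 or less, and DESeq2 with the bull as a block called 12. The strongest was bta-mir-6536-2, with 91.2, 82.6, 151 and 52.4 normalized CPM at 10 months and 52.7, 23.4, 72.8 and 40.9 at 16 months. All bulls were higher at 10 months and the ranges overlapped, at a log2 fold change of 1.00 (SE 0.22, edgeR Benjamini-Hochberg adjusted p = 0.0565). Bta-mir-2382 followed at 0.93 (SE 0.21, edgeR Benjamini-Hochberg adjusted p = 0.0565), and bta-mir-7857 and bta-mir-2438 had 0.92 and 0.91. Of the 13, the largest within-bull ratio was that of bull 2 in 8, of bull 1 in 4 and of bull 3 in 1.

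Only 11 mature entries were well counted. Bta-miR-2901 was the most shifted, with counts of 547, 134, 201 and 135 at 10 months and 149, 41, 193 and 58 at 16 months in bulls 1 to 4. All bulls were higher at 10 months after normalization, bull 1 furthest above the rest, and the ranges overlapped. The log2 fold change was 0.89 (SE 0.22, edgeR Benjamini-Hochberg adjusted p = 0.0930), whereas that of its hairpin was 0.07 (SE 0.21). Bta-miR-2441 was called lower at -0.59 (SE 0.22), while its hairpin was at -0.06 (SE 0.21). Its within-bull log2 ratios were 0.00, -1.44, -0.54 and -0.43, and it was no longer called without bull 2 (-0.33) or bull 3 (-0.58), nor in DESeq2 with the bull as a block. Bta-miR-371, a stem cell miRNA in other mammals, was at 0.51 and its hairpin at 0.45. Bta-miR-1307 had the highest mean, 744 counts, at 0.25 with its hairpin at -0.35, and bta-miR-2385-3p was at -0.46 with its hairpin at 0.05. In bulls 1 to 3 the log2 ratios of bta-miR-2385-3p were -0.89, -0.98 and -0.99 and in bull 4 it was 1.01, so that without bull 4 it was called lower at -0.96 and passed adjustment (edgeR, Benjamini-Hochberg adjusted p = 0.0254, up to 1.0 over the other alternatives). The difference between mature entry and hairpin was not tested.

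Hairpins that lie near each other in the genome differed in places in their fold changes. In the ARS-UCD2.0 assembly, used for names and neighbourhood only, 798 of the 811 hairpins were matched. Within 10 kb of bta-mir-144 lies bta-mir-451, with which it is known to share a precursor transcript; bta-mir-451 had only 9 to 23 counts per library and a log2 fold change of -0.20 (SE 0.35). Within bulls, bta-mir-144 exceeded bta-mir-451 in its log2 ratio by 1.14 ± 0.81 (SD, n = 4 bulls), in 4 of 4 bulls, and the exact permutation test then gave the smallest p that 4 pairs allow, which lies above 0.05. The neighbour bta-mir-206 of bta-mir-133b was at -0.21, below its partner in 4 of 4 bulls by 0.81 ± 0.34 (SD, n = 4 bulls). Beside bta-mir-429, bta-mir-200b was at 0.60 and bta-mir-200a at 0.23. Within bulls it exceeded them by 0.26 ± 0.32 and 0.58 ± 0.43 (SD, n = 4 bulls), each in 3 of 4 bulls. Bta-mir-541 exceeded bta-mir-154a by 0.26 ± 0.39, and bta-mir-26c exceeded bta-mir-26a-1 by 0.42 ± 0.58, each in 3 of 4 bulls. Bta-mir-433 exceeded bta-mir-665 by 0.40 ± 0.25, in 4 of 4 bulls. These pairs were chosen after their values were seen, and bta-mir-144 and bta-mir-133b were themselves named for their small p in this contrast. The permutation test therefore adds no support for a difference from the neighbour.

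Lists of conserved families and of hairpins typical of single cell types were read by their counts, beside the 3.70% of all sequences tested that were called. Of the 15 entries listed for the let-7 family, which include mature names such as bta-let-7a-5p, 6 were well counted and none was called. Their median log2 fold change was -0.01 (range -0.14 to 0.36). The most counted were bta-let-7d and bta-let-7a-3, at 0.06 and 0.36, and bta-let-7a-3 was called higher without bull 3, at 0.61. The list of the miR-17 to miR-92 family and its paralogs did not include the miR-19b hairpins, since the paper names miR-19b; of its members 3 were well counted and none was called (bta-mir-25 at 0.42, bta-mir-93 at -0.01), though bta-mir-25 was called higher without bull 3, at 0.65, and was at 0.24 without bull 2. The well counted bta-mir-19b-2, of the same family, was called higher at 10 months, with 37.6, 29.4, 46.5 and 32.4 normalized CPM in bulls 1 to 4 against 15.8, 12.6, 23.4 and 14.9 at 16 months. Its ages did not overlap (log2 fold change 1.14, SE 0.20, edgeR Benjamini-Hochberg adjusted p = 0.0114; 0.00569 to 0.9996 over the alternatives, the highest without the bull as a block), while the entry bta-mir-19b, another copy with a mean of 18.2 counts, was at 0.05. None was called of 5 of the group of miR-10, miR-99, miR-100 and miR-125 (median 0.11, bta-mir-99b at 0.19, bta-mir-125b-2 at 0.11) or of 5 of the group of miR-26, miR-29, miR-30, miR-101, miR-103 and miR-107 (bta-mir-26c at 0.50, bta-mir-26a-1 at 0.08). The single well counted members of 4 further families, bta-mir-497 at 0.16, bta-mir-23a at 0.28, bta-mir-181c at 0.07 and bta-mir-182 at 0.10, were not called. Among the well counted hairpins on these family lists 1, bta-mir-26c, had an unadjusted p of 0.05 or less, and DESeq2 with the bull as a block called 0. The imprinted cluster had 50 hairpins in the reference and 11 well counted, of which 2 were called higher (background 2.40%) and 8 lay above 0, with a median of 0.22. Its members below the count limit lay more often below 0 than above it, and none was called. They ran from bta-mir-154b at -0.66 to bta-mir-411b at 0.58, both on few counts.

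Hairpins typical of other cell types were read in the same way, beside the same background of 3.70% called. The red cell list gave 1 call, bta-mir-144, while its partners bta-mir-451 and bta-mir-486 (24 to 68 counts) were at -0.20 and 0.03. Of the 6 white cell hairpins 2 were well counted and 0 called (bta-mir-150 at 0.14, bta-mir-223 at 0.46). Of the 7 epithelial hairpins 5 were well counted and 1 called, bta-mir-429, with a summed level of 246.4 to 580.9 normalized CPM at 10 months and 142.5 to 320.2 at 16 months. In each of the 4 bulls the sum was larger at 10 months. The same held for the sums of the red cell, striated muscle and imprinted cluster lists. The white cell and stromal sums were larger at 10 months in 3 and 2 of 4 bulls. Of the epithelial hairpins bta-mir-429 was the most counted, with a mean of 522 counts against 59.1 to 109.5 in the other 4 well counted ones. These were bta-mir-200c at -0.05, bta-mir-200a at 0.23, bta-mir-141 at 0.26 and bta-mir-375 at 0.47. Below the count limit, bta-mir-200b was at 0.60 and bta-mir-205 at 0.25. Of the 9 striated muscle hairpins 4 were well counted and 2 called, bta-mir-133b and bta-mir-133a-1 at 0.67. The other well counted ones were bta-mir-208a at 0.55 and bta-mir-499 at -0.40, and bta-mir-499 was called lower without bull 4, at -0.90. Bta-mir-208a was called higher without bull 3 (0.89) or bull 4 (0.63) and was at 0.23 without bull 2. Below the count limit, bta-mir-206 was at -0.21, bta-mir-1-1 at -0.04 and bta-mir-133a-2 at 0.90; the paper names miR-133a, and both of its copies are given here. None of the 4 well counted stromal hairpins was called (bta-mir-145 at -0.42, bta-mir-199b at -0.03). None of these lists' part in the results was tested, and in bulk sperm fewer cells of a type cannot be told apart from less RNA per cell.

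Copies of a hairpin did not always follow each other. Bta-mir-584-5 was at 0.58 and bta-mir-584-7 at -0.58 (SE 0.21 and 0.24), while the other 6 copies of miR-584 lay between -0.18 and 0.36. Bta-mir-584-7 was lower at 10 months in 3 of 4 bulls and higher in bull 4. Without bull 4 its log2 fold change was -0.99 and it passed adjustment (edgeR, Benjamini-Hochberg adjusted p = 0.0234, up to 0.9999 over the other alternatives), and bta-mir-584-5 was called without bull 1 (0.59) or bull 2 (0.73). Bta-mir-129-2 was at 0.53 and bta-mir-129-1 at 0.54, and bta-mir-6536-1 at -0.01 against 1.00 for bta-mir-6536-2. Such copies can share reads, and how those were assigned was not given in the sources used here.

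All well counted tRNAs differed by less than 1.5-fold between the ages. None of the 46 was called in edgeR or in DESeq2 with the bull as a block, beside 3.70% of all sequences tested called in edgeR. Only 1 of them, the leucine tRNA LeuTAA, had an unadjusted p of 0.05 or less in edgeR, against 6.18% of all sequences tested. Log2 fold changes ran from -0.28 to 0.44 with a median of 0.05. LeuTAA had 224, 337, 466 and 143.2 normalized CPM at 10 months and 131, 283, 307 and 131 at 16 months, higher in 4 of 4 bulls with overlapping ranges (log2 fold change 0.44, SE 0.21, edgeR Benjamini-Hochberg adjusted p = 0.742). ArgTCG, at 0.41 and higher in 3 of 4 bulls, was called without bull 1 (0.60) and was at 0.23 without bull 2. Glycine tRNAs took 42.0% of the well counted tRNA counts, leucine 13.0%, glutamate 9.35% and selenocysteine 6%. The most counted, GlyCCC, was at 0.21 (SE 0.24), and GlyTCC was at -0.24 (SE 0.23) and lower at 10 months in 4 of 4 bulls, at 2795, 2725, 2395 and 2454 normalized CPM against 3583, 3352, 2637 and 2747. Also higher in 4 of 4 bulls were MetCAT, SerTGA, SerCGA, SeC(e)TCA and IleTAT, with log2 fold changes of 0.32, 0.28, 0.27, 0.30 and 0.21. In total 6 of the 46 (13.0%) were higher in 4 of 4 bulls, beside 7.20% of all sequences tested and 9.48% of the well counted ones. Lower in 4 of 4 bulls was 1 (2.17%), beside 5.36% and 6.48%. The tRNA share of all counts was 2.48% ± 0.747 at 10 months and 2.14% ± 0.351 at 16 months (SD, n = 4 each), higher at 10 months in 3 of 4 bulls, and the difference of 0.333 percentage points did not exceed the spread of the bulls (exact permutation p = 0.375). As a share of the miRNA and tRNA counts alone the direction turned, with 37.7% ± 7.62 at 10 months and 39.5% ± 6.39 at 16 months (SD, n = 4 each), higher at 10 months in 1 of 4 bulls (exact permutation p = 0.375).

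**Figure D5:**
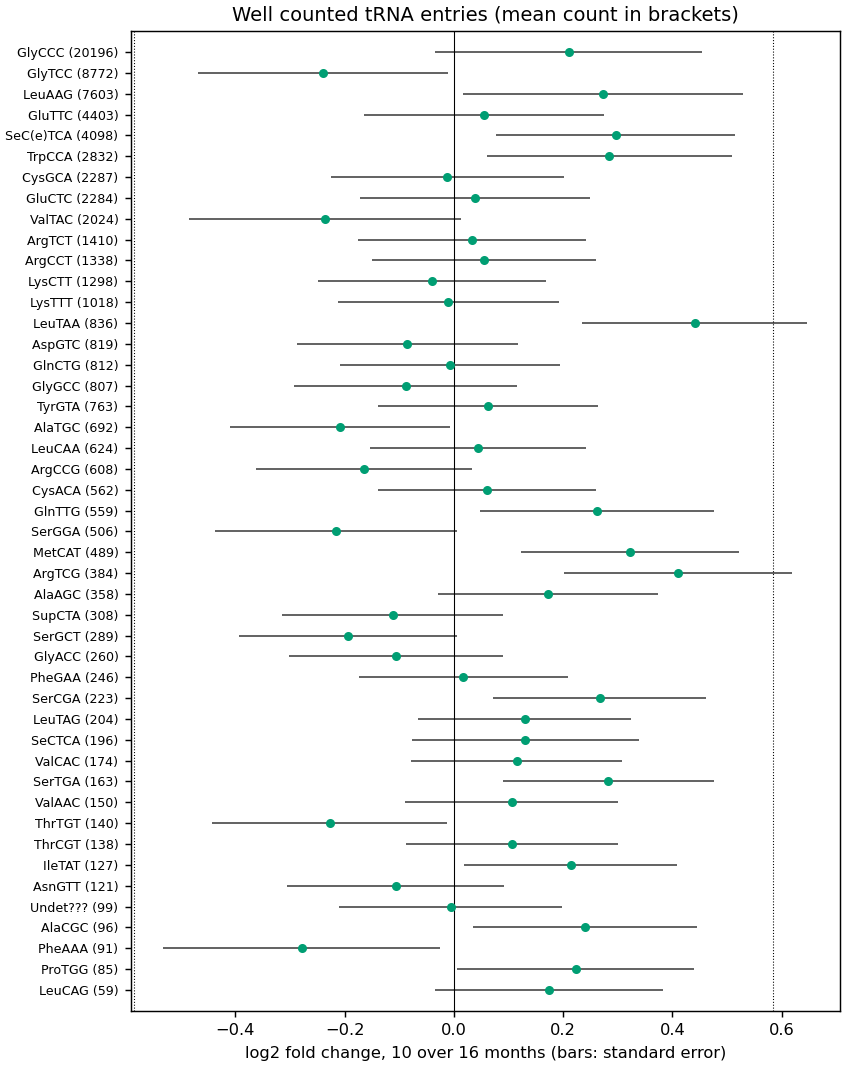
Log2 fold change of 10 over 16 months with its standard error for the 46 well counted tRNAs, ordered by mean raw count, which is given in brackets. Dotted lines mark a fold change of 1.5; values range from -0.28 to 0.44 and no point lies beyond the dotted lines.

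Among the 1341 well counted Ensembl transcripts 60 were called (4.47%, beside 3.70% of all sequences tested), 42 higher and 18 lower at 10 months (backgrounds of 2.40% and 1.30%). ENSBTAT00000059806.1 was the transcript with the strongest difference, with 5.74, 10.5, 13.6 and 24.3 normalized CPM at 10 months and 46.4, 26.8, 63.6 and 32.2 at 16 months in bulls 1 to 4. The ages did not overlap, and all 4 bulls were lower at 10 months (log2 fold change -1.68, SE 0.28, edgeR Benjamini-Hochberg adjusted p = 0.00558). Over the alternatives its edgeR or DESeq2 Benjamini-Hochberg adjusted p ran from 1.64e-08 (without bull 4) to 0.9996 (without the bull as a block). ENSBTAT00000060560.1 also did not overlap, with 22.9 to 45.6 normalized CPM at 10 months and 12.4 to 19.8 at 16 months (log2 fold change 0.99, edgeR Benjamini-Hochberg adjusted p = 0.0565). Of all sequences tested 1.69% did not overlap in this way. Of the 97 transcripts with at least 1000 counts 6 were called (background 3.70%), 5 of them higher (background 2.40%). What these transcripts encode is not given by the counts.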

How the data were processed

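Small RNA libraries of bovine sperm were read as the raw counts per reference sequence that the authors deposited. Per the submitters' processing notes and the methods, reads were trimmed with Trimmomatic 0.36 and aligned with Bowtie 1.2.2 to a reference made of bovine ncRNA sequences (miRNA, tRNA and others); mismatches, multiple matches, strand and genome build were not given in the sources used here. The deposited tables of normalized values and of the authors' own comparisons (fold changes and p-values) were not used.

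The 4 libraries of 10 months and the 4 of 16 months were fitted with edgeR 4.0.16 (R 4.3.3) over 4625 sequences with at least 1 count, by TMM, glmQLFit and glmQLFTest with the bull as a block, and Benjamini-Hochberg adjustment over all of them. Normalized CPM are TMM-scaled. Within-bull ratios had 0.5 counts added. TMM factors ran from 0.755 to 1.45. Alternatives were DESeq2 1.42.0 and other scalings, filters and subsets, and the 8 libraries compared were checked by leaving out each bull. The bulls pair the libraries, since each bull gave 1 library per age: same-bull deviations correlated at 0.333 to 0.477 (4 pairs) and others at -0.449 to 0.202 (12 pairs). Tested on simulated data for this comparison over 4625 sequences, the fit found 67 of 100 sequences changed 2-fold and 94 of 100 changed 4-fold at an adjusted p under 0.05, with 9 of 4425 unchanged sequences called. All simulated libraries shared a common mean profile, with no differences between bulls, and only sequences above a minimum mean count were changed. The bulls differ in the real libraries, so these rates do not describe the fit to them. No unique molecular identifiers were used, so p-values and counts do not separate amplified copies.

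Named sequences were those with an adjusted p under 0.05, the 12 conserved hairpins not named in the paper, 6 other hairpins, 5 mature entries, 6 tRNAs and 5 Ensembl transcripts with the smallest p, the 10 most counted conserved hairpins, list members and copies. The members and lists were chosen with earlier results of these data known. No miRNA or tRNA sequences were used here.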

Additional observations from a re-analysis of the deposited data

Results flagged for a closer look

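In 4 of 138 groups of 4 libraries, 1 library stood apart from the other 3 by the gap relative to the range (above Dixon's critical value), a pattern that chance gives in about 1 group in 20. At 10 months bta-mir-2295 was at 239 normalized CPM in bull 1 and 77.3 to 102.8 in the others (gap 0.842), and bta-miR-2285q was at 183.2 in bull 4 and 24.6 to 42.1 in the others (gap 0.890). At 16 months bta-miR-2441 was at 38.8 in bull 4 and 18.96 to 21.04 in the others (gap 0.896), and bta-miR-1307 was at 74.0 in bull 2 and 250 to 282 in the others (gap 0.849).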

How the results depend on the processing

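The number of well counted sequences called was 81 to 89 with size factors, filters, summed copies, the 10 most abundant sequences left out or all 12 libraries (74 with DESeq2 and the bull block), against 86. Without the bull as a block it fell to 31 (DESeq2 26), the conserved hairpins to 2 (DESeq2 2) and all sequences from 171 to 97 (DESeq2 63; with the block 93). Scaling by library totals gave 13 conserved hairpins. Leaving out 1 bull at a time gave 58 to 159 well counted sequences, 8 to 17 conserved hairpins and 150 to 290 of all sequences. Adjusted p under 0.05 in edgeR was reached by 3 sequences and 2 well counted ones, and by 0 and 0 without the block (also in DESeq2), with filterByExpr and with at least 10 counts; by 1 and 1 with all 12 libraries; by 9 and 8 with library totals; by 2 and 1 with copies summed; and by 1 to 47 and 1 to 40 when 1 bull was left out, and by 0 to 3 conserved hairpins. As a share of miRNA and tRNA counts only, the tRNA difference reversed to -1.84 percentage points (exact permutation p = 0.375), and bta-mir-6536-1, at -0.01, became 0.95 when summed with bta-mir-6536-2. Of 1061 values of 76 named sequences, 982 kept their side of the threshold (54 of them with the other sign, not called in either fit), 43 lost and 32 gained a call, 3 moved, and 1, that of bta-mir-6536-1 when summed, reversed. Causes were not tested. With 4 bulls no exact within-bull test can pass 0.05.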
